A study of Oryza sativa with 8 samples.

Results

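The response of rice shoots to nitrogen withdrawal was followed in 1 variety, Varadan. The 4 Varadan arrays were taken from a series of 8 by the variety and nitrogen level in the labels. The no-nitrogen group held 2 arrays of Varadan shoots in Yoshida nutrient medium without nitrogen, and the supplemented group held 2 arrays of Varadan shoots in the same medium with nitrogen supplied. The other 4 arrays held the variety Prasanna in the same media, 2 arrays a group. Per the labels' protocols, seedlings of all groups germinated for 7 days on moist paper and grew for 10 days in hydroponic medium with nitrogen before they were split. The tissue was labelled as shoot of 14 days old seedlings, a shorter time than those periods together, and the days spent in the test media are not given in the sources used here. Total RNA was labelled with biotin and hybridised to a rice expression array. Nothing in the labels says that the replicates came from separate cultures or how many plants each held, so p-values measure only the spread between these samples.

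Rice takes up nitrate and ammonium through roots, and nitrate is reduced by nitrate reductase and nitrite reductase to ammonium, which glutamine synthetase and glutamate synthase fix into amino acids. Nitrate reductase and related genes are known to be induced by nitrate itself. In leaves short of nitrogen, chlorophyll and photosynthetic proteins are broken down and their nitrogen is moved to growing tissue, and purine breakdown through allantoin recovers further nitrogen.

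Values below are log2 signals, on which a difference of 1 is a factor of 2, and differences are no nitrogen minus supplemented with the standard error of the limma fit. Of 34333 probe sets tested, 1 passed the adjusted p threshold of 0.05, which is 0.00291% (1 of 21510 genes, 0.00465%). The next smallest adjusted p was 0.153. At an unadjusted p under 0.05 there were 1042 genes higher (4.84%) and 998 genes lower (4.64%) in no-nitrogen shoots. Counts of gene lists at that unadjusted p are given as a description and are to be read against these shares. The lists were chosen with earlier results of these data known, so a list count set beside a share of all genes is not a test. Both no-nitrogen arrays lay above both supplemented arrays for 21.6% of genes and below them for 21.7%. The median SE of a gene's difference was 0.463.

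The single gene that passed was the locus Os06g0473000, for which the annotation gives chromosome 6 and no name. Log2 signals of 1.09 and 1.35 were measured on the no-nitrogen arrays, against 10.93 and 11.20 on the supplemented arrays. The locus fell by 9.84 ± 0.62 (SE, n = 2 arrays a group, limma adjusted p = 0.0217). The no-nitrogen signals lay below the level of 4.48 used to filter dim probe sets, so the size of the drop is better read as at least 95.9-fold, the supplemented mean against that level. The adjusted p was 0.0781 without the first no-nitrogen array, 0.0683 without the second, 0.436 and 0.360 without the first and second supplemented array, and 0.345 on the Varadan arrays alone. The locus also failed the threshold when either supplemented Prasanna array was left out, and passed it when either no-nitrogen Prasanna array was. All arrays share 1 estimate of spread.

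Several genes of nitrate use lay far below the supplemented arrays, all short of the adjusted threshold. The nitrate reductase gene NIA1 had log2 signals of 13.01 and 13.55 without nitrogen, against 16.29 and 15.995 with it. The groups did not overlap, and the difference was -2.86 ± 0.29 (adjusted p = 0.153). Os02g0770800, held in the nitrate list by identifier alone, had 9.47 and 5.54 without nitrogen, against 11.93 and 12.23 with it, a difference of -4.57 ± 1.24 (adjusted p = 0.384). Its no-nitrogen arrays lay far apart, and both were below the supplemented arrays.

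Os01g0357100, in the same list by identifier, had 12.09 and 11.33 without nitrogen, against 15.72 and 15.64 with it, a difference of -3.98 ± 0.43 (adjusted p = 0.168). The supplemented arrays were almost equal and the no-nitrogen arrays far below them. The gene for NAR2.2, which carriers of nitrate need for high-affinity uptake, ran the other way, with 9.67 and 9.52 without nitrogen, against 5.85 and 7.04 with it, a difference of 3.15 ± 1.76 (adjusted p = 0.622). The list as a whole had 9 tested genes, of which 0 passed the adjusted threshold, and 3 were lower and 0 higher at the unadjusted p. Its median of 0.38 had the other sign than those 3 genes and was 0.76 on the first no-nitrogen array and -0.36 on the second, so the list did not shift 1 way.

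Of 9 regulators tied to nitrogen supply, 8 were below 0, against 50.2% of all genes. The glutaredoxin gene GRXC1 had 8.56 and 7.26 without nitrogen, against 12.87 and 12.81 with it, a difference of -4.93 ± 0.65 (adjusted p = 0.214). NSHB2, a non-symbiotic haemoglobin, a protein known to scavenge nitric oxide, had 8.04 and 6.49 without nitrogen, against 10.77 and 10.40 with it, a difference of -3.32 ± 0.74 (adjusted p = 0.324). In both genes the no-nitrogen arrays lay clear below the supplemented ones, with the second array the lower.

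NIGT1, a nitrate-inducible repressor of the GARP family, had 6.604 and 2.51 without nitrogen, against 8.17 and 8.27 with it, a difference of -3.66 ± 1.55 (adjusted p = 0.555). Its second no-nitrogen signal lay below the filter level, so the size of its difference is not exact. NLP1, a NIN-like transcription factor of nitrate signalling, had 10.67 and 11.10 without nitrogen, against 9.26 and 9.29 with it, a difference of 1.61 ± 0.31 (adjusted p = 0.294). It was the 1 regulator of the list above 0. At the unadjusted p, 3 were lower and 1 was higher, and the median was -0.75.

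Recycling of urea and purines held differences in the other direction. DUR3, a high-affinity urea carrier, had 8.75 and 9.83 without nitrogen, against 3.41 and 3.17 with it. The groups were far apart, by 6.0 ± 0.64 (adjusted p = 0.168). The supplemented signals lay below the filter level, so the size is better read as at least 28.1-fold.

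ALN encodes allantoinase, which opens the ring of allantoin. It had 9.98 and 11.81 without nitrogen, against 7.92 and 7.002 with it, a difference of 3.43 ± 0.59 (adjusted p = 0.294). The next enzyme of that route, allantoate amidohydrolase (AAH), had 9.69 and 10.84 without nitrogen, against 9.55 and 9.37 with it (0.81 ± 0.41, adjusted p = 0.60). The median of 9 tested genes was 0.46, and 4 had both no-nitrogen arrays above both supplemented arrays, against 21.6% of all genes. At the unadjusted p, 2 were higher and 0 lower. DUR3 and ALN were those 2.

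**Figure D1:**
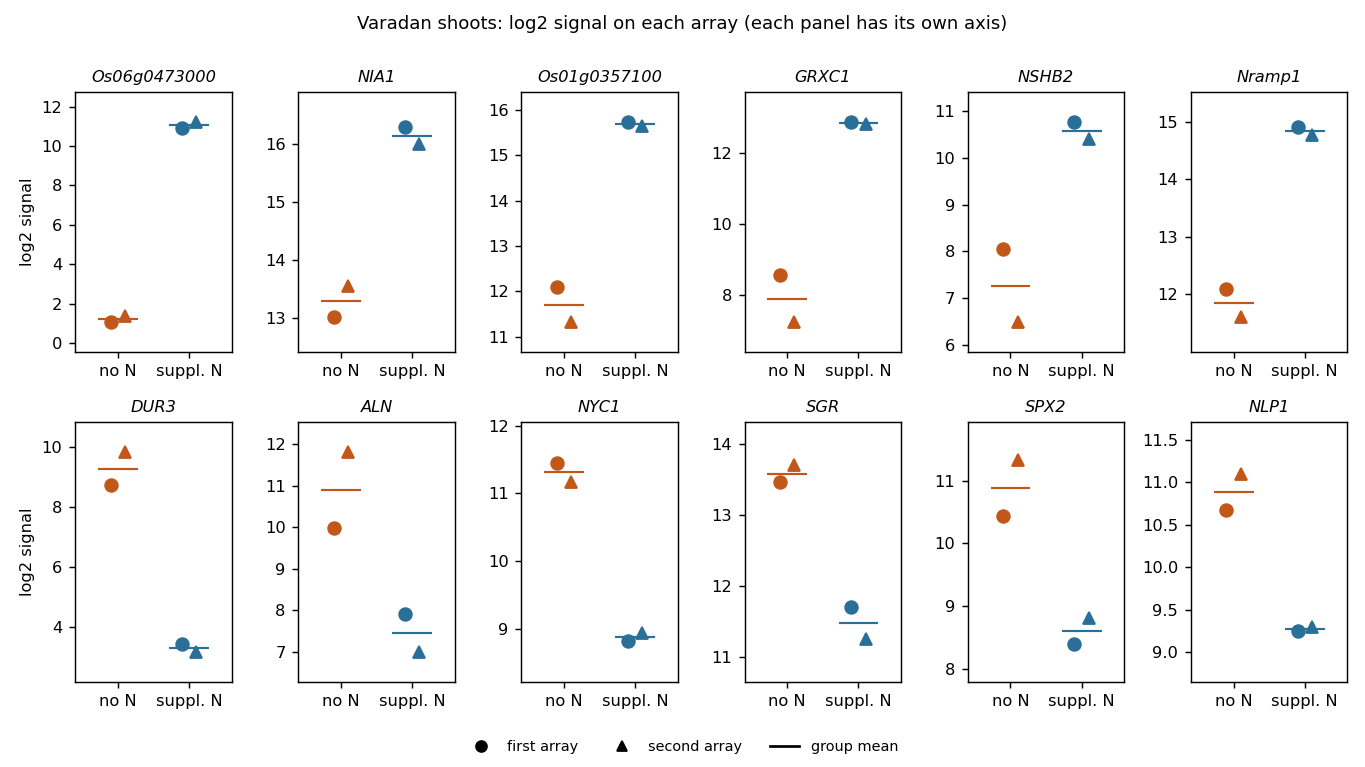
Log2 signal (y axis, a separate scale in each panel) of 12 genes on the 2 no-nitrogen arrays (orange, left) and the 2 supplemented arrays (blue, right) of Varadan shoots; circles are first arrays, triangles second arrays and lines group means. The groups do not overlap in any panel, with the 6 genes of the upper row lower and the 6 of the lower row higher without nitrogen, and only Os06g0473000 passed the adjusted threshold.

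Ammonium uptake and assimilation split within the glutamine synthetase family. GLN1-1, a cytosolic form, had 13.26 and 14.58 without nitrogen, against 12.64 and 12.72 with it, a difference of 1.24 ± 0.45 (adjusted p = 0.501). GLN1-2, also cytosolic, had 11.55 and 11.88 without nitrogen, against 12.42 and 12.40 with it, a difference of -0.70 ± 0.25 (adjusted p = 0.501). GLN2, the plastid form, had 12.65 and 14.36 without nitrogen, against 15.26 and 15.06 with it, a difference of -1.65 ± 0.72 (adjusted p = 0.563). None overlapped between the groups, where 21.6% of all genes lay apart upward and 21.7% downward. None passed the adjusted threshold.

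GLN1-3, the remaining cytosolic form, overlapped, with 6.45 and 6.56 without nitrogen, against 1.49 and 6.63 with it. The ammonium carrier gene AMT1-2 had 8.77 and 8.98 without nitrogen, against 7.74 and 7.92 with it, a difference of 1.05 ± 0.35 (adjusted p = 0.478). Of 17 tested genes of the list, 2 were higher and 1 lower at the unadjusted p. Their median was 0.35, and -0.27 on the second no-nitrogen array alone. The list of amino acid carriers, matched by symbol, held 2 genes, BAT1 and proT, and these differed by 1.85 ± 0.86 and -0.02 ± 0.29.

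Of the 5 tested genes of chlorophyll breakdown, 3 stood above the supplemented arrays on both no-nitrogen arrays, as did 21.6% of all genes. NYC1, chlorophyll b reductase, had 11.45 and 11.17 without nitrogen, against 8.82 and 8.94 with it, a difference of 2.43 ± 0.36 (adjusted p = 0.233). SGR, the stay-green protein that starts chlorophyll breakdown, had 13.46 and 13.70 without nitrogen, against 11.71 and 11.25 with it, a difference of 2.10 ± 0.55 (adjusted p = 0.372). RCCR1, red chlorophyll catabolite reductase, differed by 1.24 ± 0.36 (adjusted p = 0.408). These 3 of the 5 tested genes of the list were higher at the unadjusted p. The others, NOL and the cysteine protease gene EP3A, differed by -0.06 and -0.72.

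Chlorophyll synthesis lay on the other side. CHL1, the D subunit of magnesium chelatase, had 10.64 and 10.06 without nitrogen, against 12.30 and 12.28 with it, a difference of -1.93 ± 0.29 (adjusted p = 0.233). CHL9, the I subunit of the same enzyme, had 6.76 and 6.91 without nitrogen, against 8.55 and 8.47 with it, a difference of -1.68 ± 0.39 (adjusted p = 0.335). Neither gene overlapped between the groups. DVR, divinyl reductase, differed by -1.32 ± 0.36, UPD2, uroporphyrinogen decarboxylase, by -0.76 ± 0.28 and CHLP, geranylgeranyl reductase, by -1.91 ± 0.80. Of 16 tested genes, 5 were lower and 0 higher at the unadjusted p, 15 were below 0, where 50.2% of all genes were, and the median was -0.64.

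Most photosynthesis genes lay below the supplemented arrays, and further below on the first no-nitrogen array than on the second. Of 11 tested genes of the light reactions, 6 were lower and 0 higher at the unadjusted p. All 11 were below 0, against 50.2% of all genes, and the median was -1.13. PSB28, a photosystem II protein, had 9.91 and 12.43 without nitrogen, against 14.58 and 14.03 with it, a difference of -3.14 ± 1.05 (adjusted p = 0.477). CAB2R, a chlorophyll a/b-binding protein, had 15.80 and 16.65 without nitrogen, against 17.33 and 17.06 with it, a difference of -0.97 ± 0.34 (adjusted p = 0.489). PETE, plastocyanin, differed by -0.93 ± 0.30.

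Carbon fixation and photorespiration had 10 tested genes, 3 lower and 1 higher at the unadjusted p, with a median of -1.21. GDCSH, the H protein of glycine decarboxylase, had 12.004 and 13.14 without nitrogen, against 14.71 and 14.01 with it, a difference of -1.79 ± 0.46 (adjusted p = 0.368). The Rubisco small subunit genes RBCS1 and rbcS, whose probe sets may share signal, differed by -1.02 ± 0.35 and -1.05 ± 0.43. GLO3, a glycolate oxidase, was the 1 higher at the unadjusted p (1.03 ± 0.43), and 2 of the 10 genes were above 0. These photosynthesis genes overlap the shoot and leaf markers, of which all 8 passed the filter. All 8 were lower on both no-nitrogen arrays, against 21.7% of all genes, with a median of -1.51. Those 8 markers had a log2 of their summed signal of 17.65 and 18.92 on the no-nitrogen arrays, against 19.79 and 19.44 on the supplemented arrays. In whole shoots, fewer cells of a type and less RNA per cell cannot be told apart.

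The first no-nitrogen array stood apart in these groups. The light reactions had a median of -1.83 on the first and -0.45 on the second no-nitrogen array, each against the supplemented mean, and carbon fixation had -2.01 and -0.48. Chlorophyll synthesis had -1.02 and -0.62, and chlorophyll breakdown 1.03 and 1.46. The medians of all genes were -0.004 and 0.04. Over all tested genes, 2414 lay more than 2 log2 units from the supplemented mean on the first array, 1133 on the second, and 334 on both in the same direction.

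**Figure D2:**
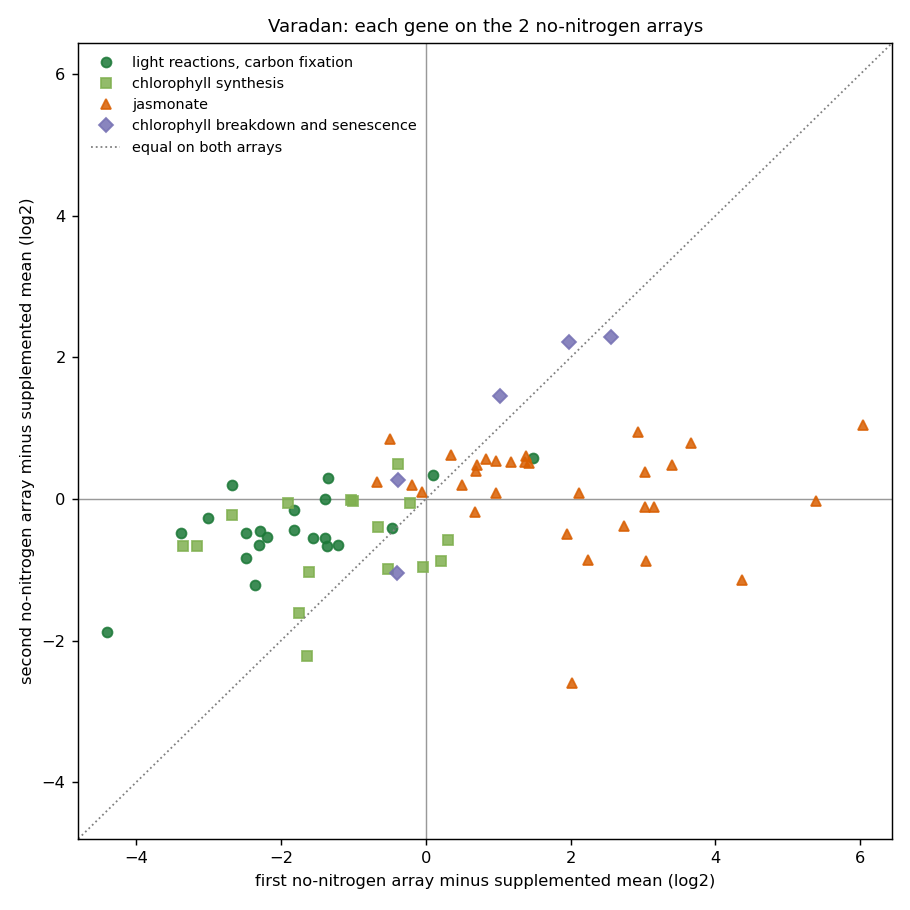
Each point is a tested gene, with its log2 signal on the first no-nitrogen array minus the supplemented mean (x axis) and the same for the second no-nitrogen array (y axis); the dotted line marks equal values. Photosynthesis genes and jasmonate genes spread along the x axis, while NYC1, SGR and RCCR1 (the diamonds above 1 on both axes) lie near the dotted line.

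Jasmonate genes differed between the arrays as well. Of 31 tested, 29 were above 0, against 49.8% of all genes. Both no-nitrogen arrays lay above both supplemented ones in 12, against 21.6% of all genes. At the unadjusted p, 3 were higher and 0 lower. The median was 1.43 on the first no-nitrogen array and 0.24 on the second. GH3.5 had 11.40 and 10.56 without nitrogen, against 10.05 and 10.01 with it, a difference of 0.95 ± 0.38 (adjusted p = 0.542). JAZ7, a JAZ repressor of jasmonate signalling, had 14.69 and 13.77 without nitrogen, against 13.16 and 13.35 with it (0.97 ± 0.42, adjusted p = 0.562). Both were highest on the first array.

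Clock genes differed between the 2 no-nitrogen arrays too. CCA1, a morning-phased transcription factor of the circadian clock, had 8.56 and 14.64 without nitrogen, against 14.80 and 14.57 with it. PRR1, a pseudo-response regulator known as an evening gene of the clock, had 11.82 and 9.34 without nitrogen, against 9.49 and 9.41 with it. For each gene the first no-nitrogen array stood alone and the second lay beside the supplemented arrays. CCA1 of Prasanna was likewise 7.97 on the first no-nitrogen array and 14.82 on the second, against 14.69 and 15.01 on the supplemented arrays. PRR95 was the 1 of 7 clock genes that reached the unadjusted p, with 14.74 and 14.80 without nitrogen, against 14.04 and 13.83 with it (0.83 ± 0.27, adjusted p = 0.461). The labels used here give no harvest time and no batch for any array, and the part of either in the values of the clock, photosynthesis and jasmonate genes was not tested.

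**Figure D3:**
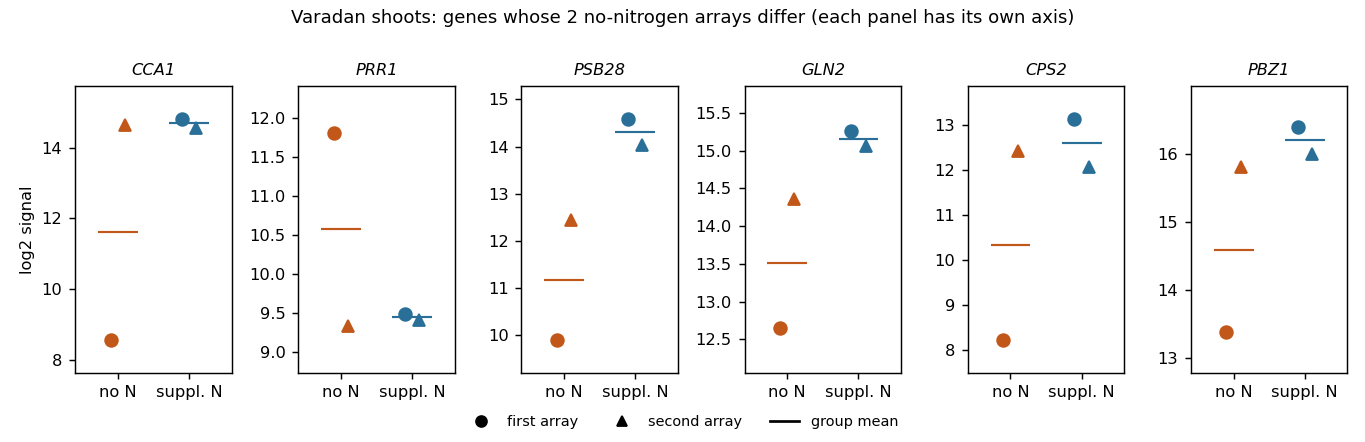
Log2 signal (y axis, a separate scale in each panel) on the 2 no-nitrogen arrays (orange, left) and the 2 supplemented arrays (blue, right) of Varadan shoots for 6 genes picked after their values were seen; circles are first arrays, triangles second arrays and lines group means. In CCA1, PRR1 and CPS2 the second no-nitrogen array lies among or beside the supplemented arrays and the first lies far off.

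Diterpenoid phytoalexin genes, which make antimicrobial compounds of rice, had medians of opposite sign on the 2 arrays, -1.31 on the first and 0.48 on the second. CPS2, a copalyl diphosphate synthase of that pathway, had 8.23 and 12.42 without nitrogen, against 13.13 and 12.06 with it. Of 17 tested, 1 gene, the kaurene synthase-like KS6, was lower and 0 were higher at the unadjusted p. Defence proteins and NPR1 homologues had 1 of 15 higher, NH1, an NPR1 homologue, with 12.14 and 10.05 without nitrogen, against 8.23 and 8.55 with it (2.71 ± 0.71, adjusted p = 0.375). PBZ1, a pathogenesis-related protein, had 13.37 and 15.80 without nitrogen, against 16.39 and 15.997 with it. Of 6 WRKY factors 0 reached the unadjusted p in limma, and of 9 NAC factors 1 did, NAC067 (1.17 ± 0.49).

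Phenylpropanoid genes, which supply lignin, had 10 of 31 tested members higher at the unadjusted p, against 4.84% of all genes, and 1 lower, with 0 past the adjusted threshold. 4CL-3, a 4-coumarate:CoA ligase, had 11.05 and 10.84 without nitrogen, against 9.33 and 9.44 with it, a difference of 1.56 ± 0.28 (adjusted p = 0.294). Its 3 tested probe sets ran between 0.44 and 1.56. CAD, a cinnamyl alcohol dehydrogenase, had 13.15 and 14.39 without nitrogen, against 11.89 and 12.03 with it (1.81 ± 0.47, adjusted p = 0.368). HCT4, named as a hydroxycinnamoyltransferase, had 6.40 and 6.44 without nitrogen, against 1.47 and 2.93 with it, the supplemented signals again below the filter level (4.22 ± 0.76, adjusted p = 0.294). Others higher included 4CL5, LAC15, LAC3, CAD6, 4CL and LAC4, and CAD9 was the 1 lower. The probe sets of LAC15 ran in both directions in Varadan, and its difference in Prasanna had the other sign. The list's median was 0.76 on the first and 0.54 on the second no-nitrogen array.

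Cell wall genes had 10 of 81 tested members higher and 2 lower at the unadjusted p, against 4.84% and 4.64% of all genes. Among the higher were 6 cellulose synthase genes. CESA8 had 12.87 and 12.64 without nitrogen, against 11.67 and 11.52 with it (1.16 ± 0.25, adjusted p = 0.317). CESA3 differed by 0.998 ± 0.25, CESA1 by 0.88 ± 0.25 and CESA6 by 0.77 ± 0.29. CESA7 and CESA4, known for secondary walls, differed by 1.86 ± 0.49 and 1.80 ± 0.56, and BC1, a COBRA-like protein of secondary walls, by 1.69 ± 0.51. The list's median was 0.32, with 0.53 on the first and 0.17 on the second no-nitrogen array. Both no-nitrogen arrays lay above both supplemented ones in 26 members and below them in 5, against 21.6% and 21.7% of all genes.

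Of 20 tested phosphate starvation genes, 3 were higher and 0 lower at the unadjusted p, and the median was 0.14. SPX2, an SPX-domain protein of phosphate signalling, had 10.44 and 11.32 without nitrogen, against 8.40 and 8.81 with it, a difference of 2.28 ± 0.37 (adjusted p = 0.266). MGD3, a galactolipid synthase, had 10.46 and 11.02 without nitrogen, against 9.61 and 8.72 with it (1.57 ± 0.40, adjusted p = 0.366). The phosphate carrier gene Pht1;1 differed by 0.96 ± 0.40.

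Metal transport genes had 5 of 52 lower and 2 higher at the unadjusted p. BHLH063, also named IRO3, a regulator of iron deficiency responses, had 11.37 and 11.52 without nitrogen, against 13.58 and 13.34 with it, a difference of -2.02 ± 0.36 (adjusted p = 0.294). The metal carrier gene Nramp1 had 12.10 and 11.60 without nitrogen, against 14.92 and 14.78 with it, a difference of -3.00 ± 0.63 (adjusted p = 0.314). ysl15, a carrier of iron bound to deoxymugineic acid, differed by -3.27 ± 0.82. The yellow stripe-like genes ysl12 and YSL13 ran the other way, by 2.13 ± 0.47 and 1.59 ± 0.39.

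Among cytokinin genes, 6 of 36 were lower and 1 higher at the unadjusted p, and the median of the list was -0.12. Of the 6 lower, 4 were response regulators. RR4 had 9.31 and 9.53 without nitrogen, against 11.31 and 11.13 with it (-1.80 ± 0.33, adjusted p = 0.294). RR2 differed by -2.09 ± 0.58, RR1 by -1.58 ± 0.50 and RR9 by -1.36 ± 0.43. The cytokinin oxidase gene CKX3 and the receptor gene HK4 were the other 2. The 1 higher was ORR1, also named RR21 and thus a response regulator too (1.28 ± 0.34).

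Aquaporins, the water channels, had 3 of 27 lower and 1 higher at the unadjusted p, and a median of -0.69, with -0.95 on the first and -0.18 on the second no-nitrogen array. TIP2;2, a tonoplast channel, had 14.59 and 14.01 without nitrogen, against 15.74 and 15.69 with it (-1.42 ± 0.44, adjusted p = 0.450). LEA and abscisic acid genes had 4 of 35 higher, among them the phosphatase genes PP2C68 (2.11 ± 0.51), PP2C49 and PP2C30 and the kinase gene SAPK6, and 1 lower. LEA1 was the lower one, with 10.21 and 7.45 without nitrogen, against 13.62 and 13.39 with it (-4.67 ± 1.18, adjusted p = 0.358).

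Starch, sucrose and sugar carrier genes had 3 of 52 higher, SWEET4, AMY1.5 and SUT4, and 3 lower, SPP1, SPS3F and TPT. Heat shock genes had 0 of 47 higher and 2 lower, hsp17.9 and HSP24.1. Of all genes, 4.84% were higher and 4.64% lower at the unadjusted p, so neither list stood apart in these counts. Autophagy genes and proteases had 1 of 8 higher, APG8A, with 14.28 and 14.42 without nitrogen, against 13.74 and 13.86 with it (0.55 ± 0.23, adjusted p = 0.555). Cytosolic ribosomal protein genes had 0 of 19 at the unadjusted p in limma, although 18 were below 0, against 50.2% of all genes. Both no-nitrogen arrays lay below both supplemented ones in 11 of them, against 21.7% of all genes. Their median was -0.28. With quantile normalization that median was -0.04.

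**Figure D4:**
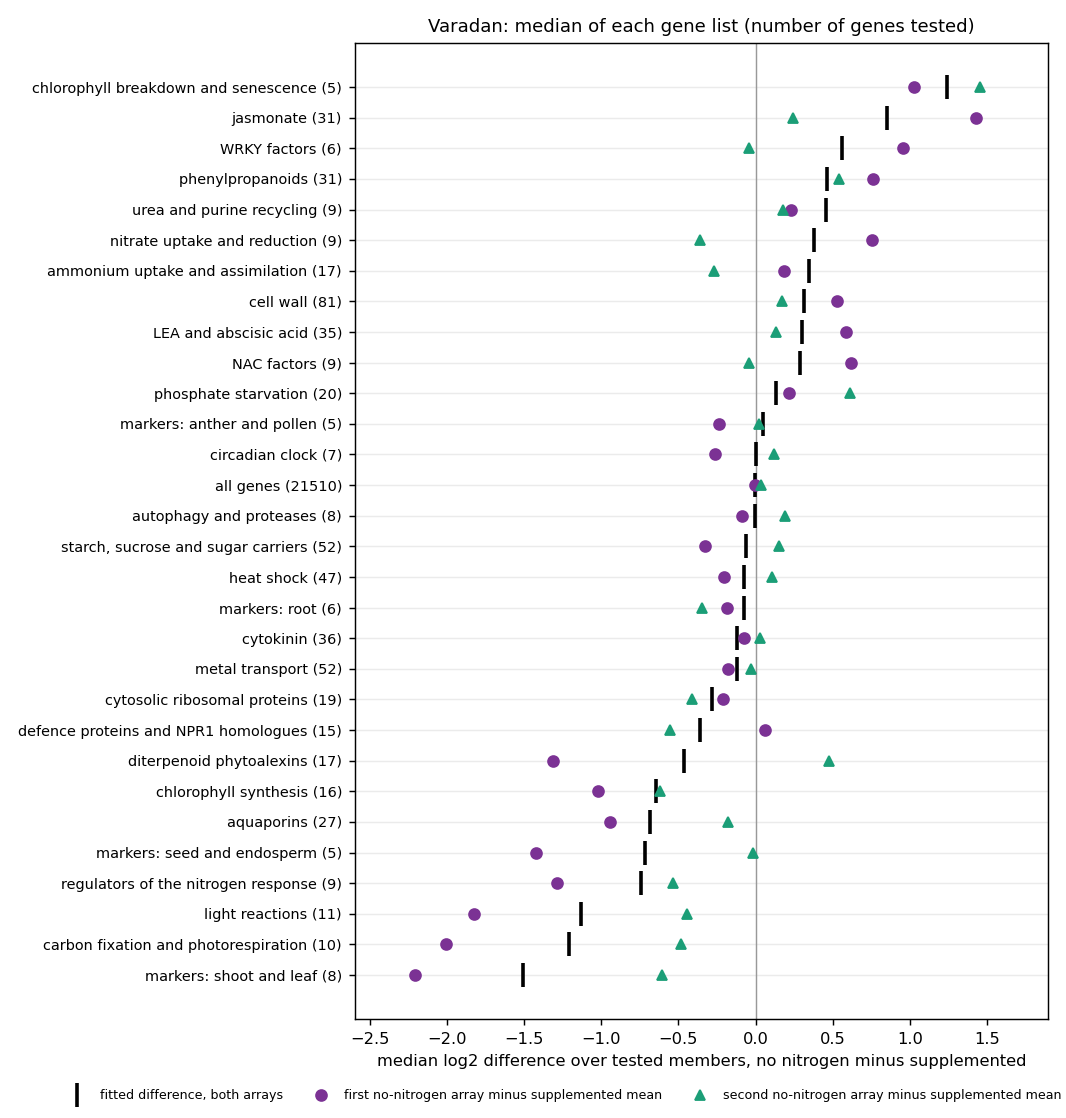
Median log2 difference, no nitrogen minus supplemented, over the tested genes of each list of Varadan shoots (x axis), with black bars for the fit, purple circles for the first and green triangles for the second no-nitrogen array; the number of genes is in brackets. Chlorophyll breakdown lies right of 0 and photosynthesis lists left of 0 on both arrays, the diterpenoid list has circle and triangle on opposite sides, and scaling to spiked controls would move the bars right by 1.08, the circles by 1.29 and the triangles by 0.88.

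Outside these lists, 1 gene named for its small p-value was AC7, an actin, with 14.46 and 14.50 without nitrogen, against 13.01 and 13.26 with it (1.34 ± 0.24, adjusted p = 0.294). SAP9, a stress-associated zinc finger protein, had 13.19 and 13.24 without nitrogen, against 11.89 and 11.73 with it (1.40 ± 0.28, adjusted p = 0.309). The metallothionein gene MT-2 differed by 1.16 ± 0.24 on its named probe set, while its 3 tested probe sets ran between -1.09 and 1.16. On the lower side, PRXIIE-2, a peroxiredoxin, had 10.98 and 11.13 without nitrogen, against 13.12 and 12.76 with it (-1.89 ± 0.27, adjusted p = 0.231). ASL1, SNAT2 and GYRB, the B subunit of DNA gyrase, differed by -1.55 ± 0.30, -1.59 ± 0.32 and -1.46 ± 0.30. None of these overlapped between the groups, which was a condition for naming them.

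Some facts of the arrays bear on these values. Spearman's rho between the 2 no-nitrogen arrays was 0.886, and between the 2 supplemented arrays 0.939. The second no-nitrogen array correlated at 0.922 and 0.928 with the supplemented arrays, and the first at 0.872 and 0.886, while the first no-nitrogen arrays of Varadan and Prasanna correlated at 0.911. The median SD between replicates was 0.463 without nitrogen and 0.260 with it. An actin control probe set for the 5' end had 7.93 and 7.42 without nitrogen, against 5.75 and 4.73 with it. Its counterpart for the 3' end overlapped, with 13.32 and 13.50 without nitrogen, against 13.40 and 13.07 with it. A further actin 5' set lay apart upward too, with 8.44 and 8.72 without nitrogen, against 7.99 and 7.44 with it. So did a further actin 3' set (12.84 and 13.06, against 12.72 and 12.45), while another overlapped. The brighter Gapdh 5' set and the 5' sets of the Cyph and ubiquitin controls overlapped. A dim Gapdh 5' set lay apart upward (4.48 and 2.98, against 1.49 and 1.91), and an ef1a 5' set downward (5.58 and 5.69, against 6.56 and 6.63). The part of RNA quality or labelling in the differences was not tested. The 18 spiked bacterial and phage controls averaged 11.999 and 12.41 without nitrogen, against 13.60 and 12.97 with it. Scaling the arrays to these controls added 1.08 to every difference and moved the median of all probe sets to 1.02, where it was -0.06 as deposited, and gave 24 calls, 22 higher and 2 lower. Under that scaling the medians of chlorophyll synthesis, the nitrogen regulators, aquaporins and ribosomal proteins were above 0 (0.44, 0.34, 0.40 and 0.80), and those of the light reactions and carbon fixation were -0.05 and -0.13. All directions in this text are thus relative to the bulk of the probe sets.

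Of the markers of other tissues, 6 of 7 root, 5 of 13 seed and 5 of 6 anther and pollen genes passed the filter, and 0 of them reached the unadjusted p in limma. The log2 of the summed signal was 11.02 and 10.59 for the root markers without nitrogen, against 10.47 and 10.70 with it. For seed markers it was 10.96 and 11.59 on the no-nitrogen arrays, against 11.55 and 11.58 on the supplemented arrays, and 9.003 and 9.47 for anther and pollen markers without nitrogen, against 9.33 and 9.08 with it. These sums overlapped between the groups.

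The same withdrawal in Prasanna served to ask whether Varadan's response differed. No probe set passed for the difference between the varieties (0 of 34333, limma, smallest adjusted p 0.9999), and 352 of 21510 genes (1.64%) reached the unadjusted p. In DUR3 the difference was 6.0 in Varadan and 3.52 in Prasanna, where the supplemented arrays had 6.48 and 4.97 (unadjusted p of the difference 0.0279, adjusted 0.9999). Against the filter level, above Varadan's supplemented signals, the Varadan difference was 4.81. NIA1 had -2.86 in Varadan and -2.50 in Prasanna, GRXC1 -4.93 in Varadan and -5.70 in Prasanna, and NYC1 2.43 in Varadan and 1.68 in Prasanna. Os06g0473000 had -9.84 in Varadan and -7.61 in Prasanna, with no-nitrogen signals of 2.67 and 4.34 in Prasanna (unadjusted p of the difference 0.0361). All of these no-nitrogen signals lay below the filter level of 4.48, and against that level the drop was 6.58 in Varadan and 6.63 in Prasanna, so no difference in size can be read.

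The smallest p of a difference among genes with a symbol and a lower value in Varadan belonged to PRXIIE-2, with -1.89 in Varadan and -0.37 in Prasanna (unadjusted p 0.0049, adjusted 0.9999). The light reactions had a median of -1.13 in Varadan and -0.28 in Prasanna, and chlorophyll synthesis had -0.64 in Varadan and -0.77 in Prasanna. Those medians were not tested against each other.

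**Figure D5:**
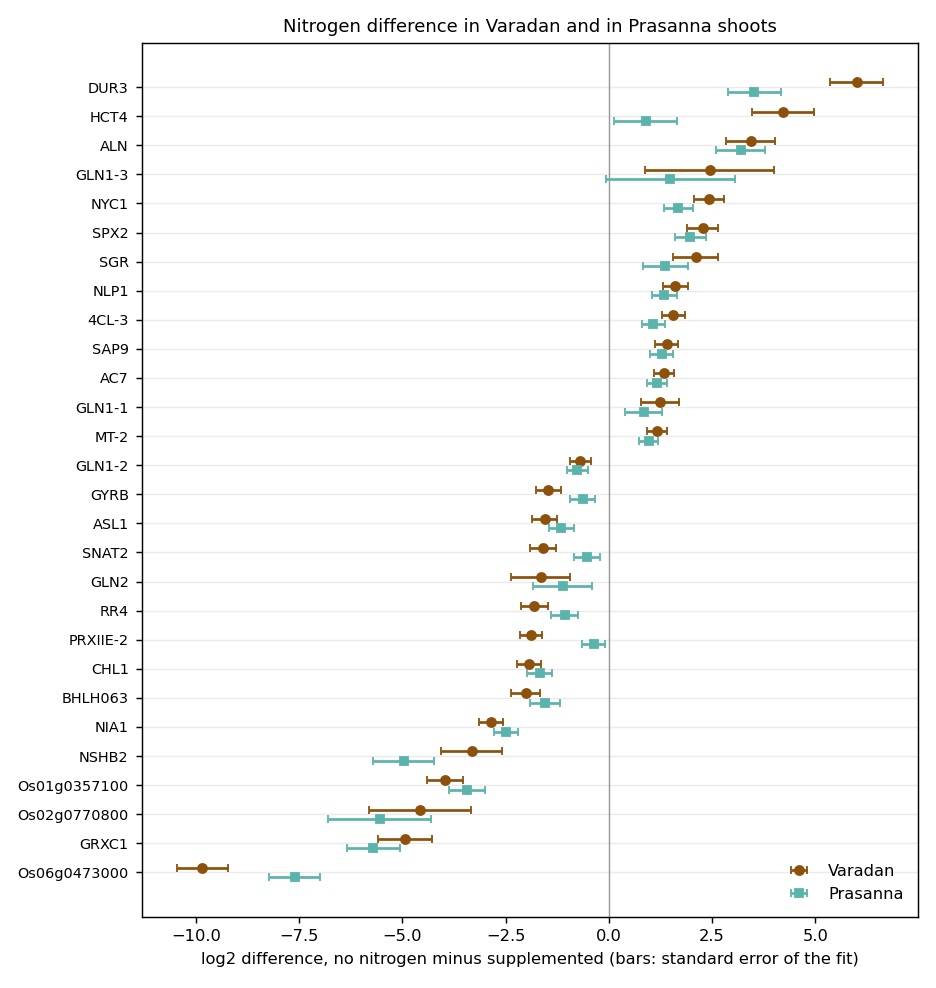
Log2 difference, no nitrogen minus supplemented (x axis), with the standard error of the fit, of 28 genes in Varadan (brown circles) and Prasanna (green squares). They are the genes of smallest p in Varadan and a few chosen genes of nitrogen use and chlorophyll breakdown. These 28 lie on the same side of 0 in both varieties, and 24 are larger in Varadan, by whose p most were picked. The share of all genes on the same side was not counted. UAH, a gene of purine recycling not drawn, had 0.54 in Varadan and -0.75 in Prasanna. No difference between the varieties passed the adjusted threshold.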

How the data were processed

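MAS5 made the signals, per the submitters' processing notes, which name no version. The authors deposited log2 values of 57381 probe sets, and the same signals as linear intensity, whose log2 differed by at most 2.96e-08. Each array's trimmed mean signal was about 499.87, so changes shared by most transcripts are scaled away. Those whose mean over the arrays reached the 40th percentile of all probe sets (a log2 of 4.48) entered the test, made with limma 3.58.1 in R 4.3.3 (lmFit, eBayes with trend, 2-sided) on all 8 arrays with 1 mean per group (4 residual degrees of freedom) and Benjamini-Hochberg adjustment. The number of arrays limits the precision. Of the probe sets, 34860 had 1 gene in the platform annotation, 567 several and 21767 none. Symbols came from a RefSeq table (ASM3414082v1), and the probe set with the highest mean stood for a gene. Named genes were those past the threshold, the 10 of smallest p in each direction with groups apart, up to 4 of smallest p in each list, the defining nitrogen genes and 5 in each direction for the difference between varieties; other members named are those past the unadjusted p. Members and lists were chosen with earlier results of these data known, and list members without a place in their theme were removed after the annotation was read. The fit was tested on simulated data. Alternatives were the filter, the normalization, an added signal of 32, the samples in the fit, a replicate block, the variance prior, array weights, leaving out arrays and 1 probe set per gene. No sequences are printed.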

Additional observations from a re-analysis of the deposited data

Results flagged for a closer look

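In 7 of the 134 genes picked for naming, every Varadan array without nitrogen lay on one side of the supplemented arrays and every Prasanna array without nitrogen on the other side, so the nitrogen differences have opposite signs; none of the differences between varieties passed (adjusted p 0.9999), and most of these genes were picked by the smallest p of that difference. Over all 21510 genes tested, 488 (2.27%) had groups apart in opposite directions in this way. The difference, Varadan minus Prasanna, was 5.26 for CASPL1C1, which had 7.48 and 6.41 on the no-nitrogen arrays of Varadan, against 2.78 and 3.22 on its supplemented arrays, and 4.98 and 4.77 on the no-nitrogen arrays of Prasanna, against 6.79 and 5.58 on its supplemented arrays. It was 4.39 for the MADS-box gene Lhs1, 2.92 for the laccase gene LAC15, -2.42 for EP3A, -1.73 for SPL4, -2.10 for C3H3 and -4.06 for TBL3. The probe sets of LAC15 ran between -1.88 and 1.99 in Varadan and those of SPL4 between -0.86 and 0.65. Both Varadan groups of EP3A averaged below the filter level of 4.48 (3.74 without nitrogen, against 4.47 with it), so its direction in Varadan cannot be read. In CASPL1C1, Lhs1, LAC15 and TBL3 at least 1 group also averaged below that level, so the sizes of their differences are not exact.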

How the results depend on the processing

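The Varadan count of 1 probe set was also 1 without a filter, at the 60th percentile, with quantile normalization, with log2(signal + 32), with array weights, with 1 probe set per gene and with a replicate block over the 8 arrays. It was 0 with the Varadan arrays alone, with a replicate block within variety and without the trend. Leaving out 1 array gave 0 to 1, and the 1 left without the second no-nitrogen array was another locus. It was 24 scaled to spiked controls, a setting chosen after seeing the data, and 370 (93 higher, 277 lower) without both first no-nitrogen arrays, a fit in which the single no-nitrogen array of a variety is taken to vary as the supplemented arrays do. In that fit the differences were 6.54 in DUR3, 4.34 in ALN, 2.29 in NYC1, -2.59 in NIA1, -5.59 in GRXC1 and -5.71 in NIGT1. These genes were chosen for nitrogen use or chlorophyll breakdown and do not stand for the other lists. In that fit the no-nitrogen signal of NIGT1 and the supplemented signals of DUR3 lay below the filter level. The sizes of their differences are thus not exact in that fit. The median of the jasmonate list was 0.24 there, and that of the light reactions -0.45. The count for the difference between varieties was 0 throughout. The deviations of same-numbered arrays correlated at -0.04 between the Varadan groups and 0.46 between the no-nitrogen groups of both varieties. These correlations cannot show whether same-numbered arrays were handled together.

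Directions turned with quantile normalization in RPS21 (0.0174) and WOX9 (0.26), and without both first no-nitrogen arrays in proT (0.23), PRR1 (-0.11), WRKY71 (-0.31), NAC45 (-0.41) and NAC048 (-0.0434). Scaled to spiked controls they turned in GLN1-2 (0.39), proT (1.06), PETE (0.15), RBCS1 (0.0668), rbcS (0.0291), UPD2 (0.33), EP3A (0.36), WRKY76 (0.41), RPS4 (0.62), RPS21 (0.62), RPL39C (0.62), RPL7A-1 (0.64), APG12 (0.54), CAB2R (0.11), PIN5 (0.44), WOX5 (0.65), WOX9 (0.91), prolamin (0.0513), GLUA-2 (0.36), GLUA-1 (0.41), RTS (0.10), BHLH164 (0.39), SPL4 (0.53), C3H3 (0.40) and TBL3 (0.47). The cause was not tested. Leaving out 1 array gave values of both signs for proT (-0.271 to 0.233), PRR1 (-0.114 to 2.37), WRKY71 (-0.309 to 2.08), NAC45 (-0.408 to 2.29), NAC048 (-0.0434 to 0.619), GAM1 (-0.238 to 0.403), RAA1 (-0.0552 to 1.80), GLUA-1 (-1.48 to 0.138), GLN1-3 (-0.126 to 5.02), WOX9 (-0.745 to 0.390) and YSL2 (-0.267 to 0.546).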
